A study of Mus musculus with 15 samples.

Results

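The cytosolic sulfotransferases are a family of soluble enzymes, named Sult genes in the mouse. Their transcripts were followed here in the livers of mice fed a ketogenic diet (KD), a high fat diet (HFD) or chow (CD). The members are 7 genes given by name, Sult1a1, Sult1b1, Sult1c2, Sult1d1, Sult2a8, Sult3a1 and Sult5a1, out of 25731 genes with a transcript in the data. Of the 7 members, 6 had enough reads to be among the 13967 genes tested, and Sult3a1 did not. The annotation holds 21 Sult genes in all. The other 14 were given as a background to the members, and 2 of these, Sult1e1 and Sult2a7, were tested.

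RNA-seq was carried out on total RNA from whole liver of C57BL/6 mice, with 5 libraries per diet and 15 in all. The KD libraries came from mice given a ketogenic diet for 3 days, and the HFD libraries from mice given a high fat diet for 3 days, both at 12 weeks of age. The CD libraries came from mice on chow, for which the labels also give 3 days. Their age was not analysed here, so whether it matched that of the KD and HFD mice was not tested. The labels name no altered gene in any group, and the sex of the mice and the composition of the diets were not used here. The labels number the libraries but do not say that each is 1 mouse, so the p-values measure the spread between libraries. The diets share no library number, and all comparisons with chow use the same 5 CD libraries.

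Libraries held 34707597 to 50914494 estimated reads under KD, 30121672 to 44764257 under HFD and 30190806 to 43688344 under CD. Among all genes tested, rises made up 52.6% of the calls in KD against CD, 53.1% in HFD against CD and 50.1% in KD against HFD. With library totals as the only scaling, the share was 68.5% in KD against CD and 70.6% in KD against HFD, and with limma on log2(TPM + 0.5) it was 93.2%, 25.8% and 96.0% in the 3 comparisons in that order. Transcripts of the Y-linked genes Ddx3y, Eif2s3y, Kdm5d and Uty were present in every library, at 484 to 4583 reads. All 10 hepatocyte markers were expressed, and their summed level was 88468 to 100045 CPM under KD, 76704 to 89804 CPM under HFD and 80054 to 96146 CPM under CD. Most of this sum was Alb, at 67014 ± 2394, 53630 ± 3402 and 64017 ± 5122 CPM in the same diets. Of the 10 markers, 2 rose and 2 fell in each comparison. Among all genes tested, 30.8% were called in KD against CD, 15.6% in HFD against CD and 26.1% in KD against HFD.

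Sulfotransferases move a sulfonate group from the activated donor PAPS onto hydroxyl or amino groups of small molecules, which makes them more water soluble and, for many hormones, inactive. The liver is a main site of this reaction, where it acts on phenolic drugs, thyroid hormones, catecholamines, steroids and bile acids. PAPS is made from ATP and inorganic sulfate by the PAPS synthases, and much of the sulfate comes from oxidation of cysteine. The Golgi holds a separate set of sulfotransferases that act on proteins, lipids and sugar chains, and sulfatases take the group off again.

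All but the lowest member, Sult3a1, lie on chromosomes 5, 7, 8 and 17 of GRCm38, and Sult3a1 lies on chromosome 10. Sult1b1 (ENSMUSG00000029269.11) spans bases 87513339 to 87538195 of chromosome 5 on the minus strand, and Sult1d1 (ENSMUSG00000029273.10) follows at 87554645 to 87569027 on the same strand. Sult1e1 (ENSMUSG00000029272.8), at 87575969 to 87591594, completes a run of 3 Sult genes within 78.3 kb, with no other coding gene inside. Sult2a8 (ENSMUSG00000030378.15) lies on chromosome 7 at 14410686 to 14446769, beside Sult2a7 at 14465051 to 14494230, and the pair spans 83.5 kb. Sult1a1 (ENSMUSG00000030711.16) is a short gene elsewhere on chromosome 7, at 126672865 to 126676432. Sult5a1 (ENSMUSG00000000739.14) spans 123140192 to 123158315 of chromosome 8, Sult1c2 (ENSMUSG00000023122.6) spans 53829637 to 53846339 of chromosome 17, and Sult3a1 (ENSMUSG00000069668.4) spans 33857721 to 33879532 of chromosome 10. Sult3a1 is on the plus strand and the other members are on the minus strand.

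The promoter windows of Sult1d1, Sult1a1 and Sult2a8 are printed because these are the members with the highest levels and because their RefSeq start lies 21, 14 and 0 bases from the start of the transcript that carried most of their reads. Each window runs from 250 bases before to 50 bases after the RefSeq start in GRCm38.p6, read 5′ to 3′ on the gene's strand. Capitals mark 3 motifs searched on both strands, the nuclear receptor core AGGTCA, the TATA box TATAAA and the HNF4-type site CAAAGTCCA.
Sult1d1 (chr5:87568957-87569256, minus strand): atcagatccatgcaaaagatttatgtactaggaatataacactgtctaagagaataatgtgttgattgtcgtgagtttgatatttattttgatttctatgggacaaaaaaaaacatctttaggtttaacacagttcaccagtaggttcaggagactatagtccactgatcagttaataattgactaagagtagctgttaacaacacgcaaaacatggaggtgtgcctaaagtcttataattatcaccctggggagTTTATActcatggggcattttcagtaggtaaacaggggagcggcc
Sult1a1 (chr7:126676369-126676668, minus strand): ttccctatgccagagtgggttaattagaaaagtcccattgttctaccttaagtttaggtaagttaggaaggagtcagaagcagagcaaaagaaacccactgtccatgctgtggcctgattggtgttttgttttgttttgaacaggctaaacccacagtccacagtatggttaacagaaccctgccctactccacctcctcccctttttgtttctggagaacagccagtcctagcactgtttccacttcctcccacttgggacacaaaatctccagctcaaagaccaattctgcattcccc
Sult2a8 (chr7:14438502-14438801, minus strand): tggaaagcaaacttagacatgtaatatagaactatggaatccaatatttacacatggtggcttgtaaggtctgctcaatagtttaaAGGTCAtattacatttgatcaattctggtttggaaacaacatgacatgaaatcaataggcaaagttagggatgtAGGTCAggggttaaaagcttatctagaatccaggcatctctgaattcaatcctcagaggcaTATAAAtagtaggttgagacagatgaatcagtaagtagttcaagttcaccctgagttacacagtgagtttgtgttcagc
Sult1d1 held the TATA box letters on the reverse strand just after the start and neither of the other motifs. The Sult1a1 window held none of the 3 motifs. Sult2a8 held AGGTCA at 164 and at 90 bases before the start and TATAAA at 29 bases before it. Of all 32851 RefSeq windows of this length, 16.3% hold AGGTCA, 13.6% hold TATAAA and 0.475% hold CAAAGTCCA, on either strand. The matches are descriptions of the letters in these windows and were not tied to the binding of any factor.

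Levels of different genes were compared within a diet as TPM, a unit that divides reads by transcript length and by the library's total. Sult2a8, known in mouse liver for sulfating bile acids, was the highest member in every library, at 922 ± 71.8 TPM under KD, 596 ± 57.5 TPM under HFD and 522 ± 39.7 TPM under CD (SD, n = 5 each). It supplied 62.1% ± 3.35 of the members' summed TPM under KD, 59.2% ± 1.33 under HFD and 65.3% ± 4.57 under CD. Sult1a1, the main phenol sulfotransferase, came next at 350 ± 26.4, 227 ± 21.3 and 189 ± 49.0 TPM in the same 3 diets. Sult1d1, which sulfates dopamine and other catecholamines in the mouse, followed at 149 ± 31.2, 124 ± 14.9 and 52.5 ± 11.2 TPM. No library overlapped between any of these neighbours in the order.

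Sult1b1 and Sult5a1 were the only neighbours in the order whose libraries overlapped, and they changed places between diets. Sult1b1 averaged 34.3 ± 7.06 TPM under KD, 28.5 ± 2.89 TPM under HFD and 17.4 ± 4.01 TPM under CD, and Sult5a1 averaged 24.7 ± 8.41, 29.6 ± 7.02 and 21.5 ± 4.56 TPM in those diets. Sult1c2 was far lower, at 3.10 ± 0.949, 1.29 ± 0.377 and 1.53 ± 0.370 TPM. Sult3a1 was at or near 0 in all diets. The TPM ratio of Sult1d1 to Sult1a1 within a library was 0.315 to 0.493 under KD, 0.456 to 0.639 under HFD and 0.242 to 0.324 under CD. On this scale the KD range overlapped the CD range at its edge and the HFD range did not. Lengths that differ by diet enter this ratio. The effective length averaged 1551, 1651 and 1733 bases for Sult1d1 under KD, HFD and CD, and 1113, 1169 and 1162 bases for Sult1a1.

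**Figure D1:**
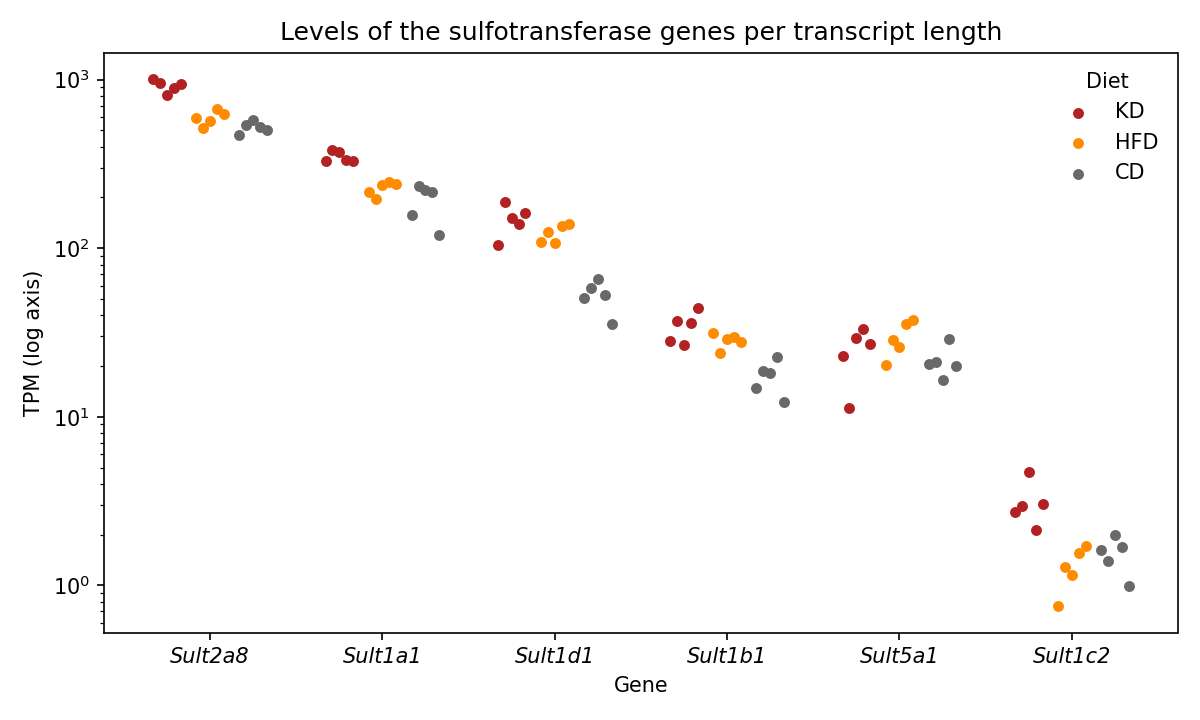
TPM of 6 sulfotransferase genes on a log axis, with 1 point per library for KD, HFD and CD. Sult2a8, Sult1a1 and Sult1d1 form separate steps in each diet, whereas the points of Sult1b1 and Sult5a1 overlap and Sult1c2 lies lowest.

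Differences between diets were tested on estimated counts and are given as CPM, counts divided by library totals that TMM had corrected for genes taking up a large share of reads. In KD against CD, 5 of the 6 members tested rose, Sult1d1, Sult1b1, Sult1c2, Sult1a1 and Sult2a8, by 1.36-fold to 2.16-fold. None fell, by edgeR, DESeq2 or limma or at an unadjusted p under 0.05, and Sult5a1 did not pass the test. Among all genes tested, 16.2% rose and 14.6% fell in this comparison, 30.8% together. The median log2 fold change of the 6 members was 0.64, against -0.01 for all genes. For 4 of the 6 members every KD library was above every CD library, a pattern that 12.2% of all genes showed, while 10.1% showed the opposite one. These are whole-liver measurements, in which a change in the number of cells of a type and a change in RNA per cell cannot be told apart.

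Sult1d1 had the largest ratio of KD to CD among the 6 members tested. It had 116, 207, 166, 179 and 198 CPM in KD livers, against 84.6, 86.1, 92.5, 72.0 and 66.3 CPM in CD livers. Every KD library was above every CD library, and KD library 2 was the lowest of its group. KD livers averaged 173 ± 35.8 CPM and CD livers 80.3 ± 10.8 CPM, a log2 fold change of 1.11 (SE 0.140), or 2.16-fold with a 95% interval of 1.75 to 2.65 (edgeR quasi-likelihood test, adjusted p = 2.44e-05).

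Its neighbour Sult1b1, which acts on thyroid hormones and phenols, had 28.5, 36.3, 26.2, 40.6 and 47.8 CPM in KD livers, against 20.2, 22.3, 22.1, 26.0 and 17.5 CPM in CD livers. The groups were separate by a narrow margin, between the lowest KD library and the highest CD library. The difference was 1.66-fold with a 95% interval of 1.30 to 2.11 (log2 fold change 0.73, SE 0.164, adjusted p = 0.00352).

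Sult1a1 had 262, 309, 297, 297 and 293 CPM in KD livers, against 172, 229, 219, 207 and 142 CPM in CD livers. The KD libraries lay close together and all above the CD libraries, which spread more widely. The difference was 1.5-fold with a 95% interval of 1.29 to 1.76 (log2 fold change 0.59, SE 0.107, adjusted p = 0.000400). With limma on log2(TPM + 0.5) the log2 fold change was 0.93, on a scale where the median of all genes was 0.24. Sult1a1 shares 2.22% of its 31-base words with other genes, mostly with Sgf29, which overlaps it on the opposite strand and had 235 to 448 reads per library.

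Sult2a8 had 1319, 1264, 1065, 1363 and 1378 CPM in KD livers, against 898, 913, 975, 856 and 1051 CPM in CD livers. The lowest KD library stood just above the highest CD library. The difference was 1.36-fold with a 95% interval of 1.20 to 1.55 (log2 fold change 0.44, SE 0.0883, adjusted p = 0.000814), the smallest of the rises on a ratio scale. With limma on log2(TPM + 0.5) the log2 fold change was 0.82, against the same median of 0.24 for all genes. KD livers averaged 1278 ± 127 CPM and CD livers 939 ± 75.8 CPM. The members' summed level, of which Sult2a8 made up the most, was 1799 ± 145 CPM under KD, 1546 ± 144 CPM under HFD and 1255 ± 61.3 CPM under CD. The KD range of 1578 to 1940 CPM lay above the CD range of 1186 to 1325 CPM. So did the HFD range of 1346 to 1711 CPM, which overlapped the KD range.

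Sult1c2 was measured at low depth, with 142 to 211 reads per KD library, 49 to 83 per HFD library and 54 to 105 per CD library. It had 3.35, 3.67, 5.76, 2.94 and 4.12 CPM in KD livers, against 2.77, 2.12, 3.03, 2.50 and 1.84 CPM in CD livers. The lowest KD library fell just below the highest CD library, so the groups overlapped. The difference was 1.61-fold with a 95% interval of 1.23 to 2.11 (log2 fold change 0.69, SE 0.186, adjusted p = 0.00858).

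**Figure D2:**
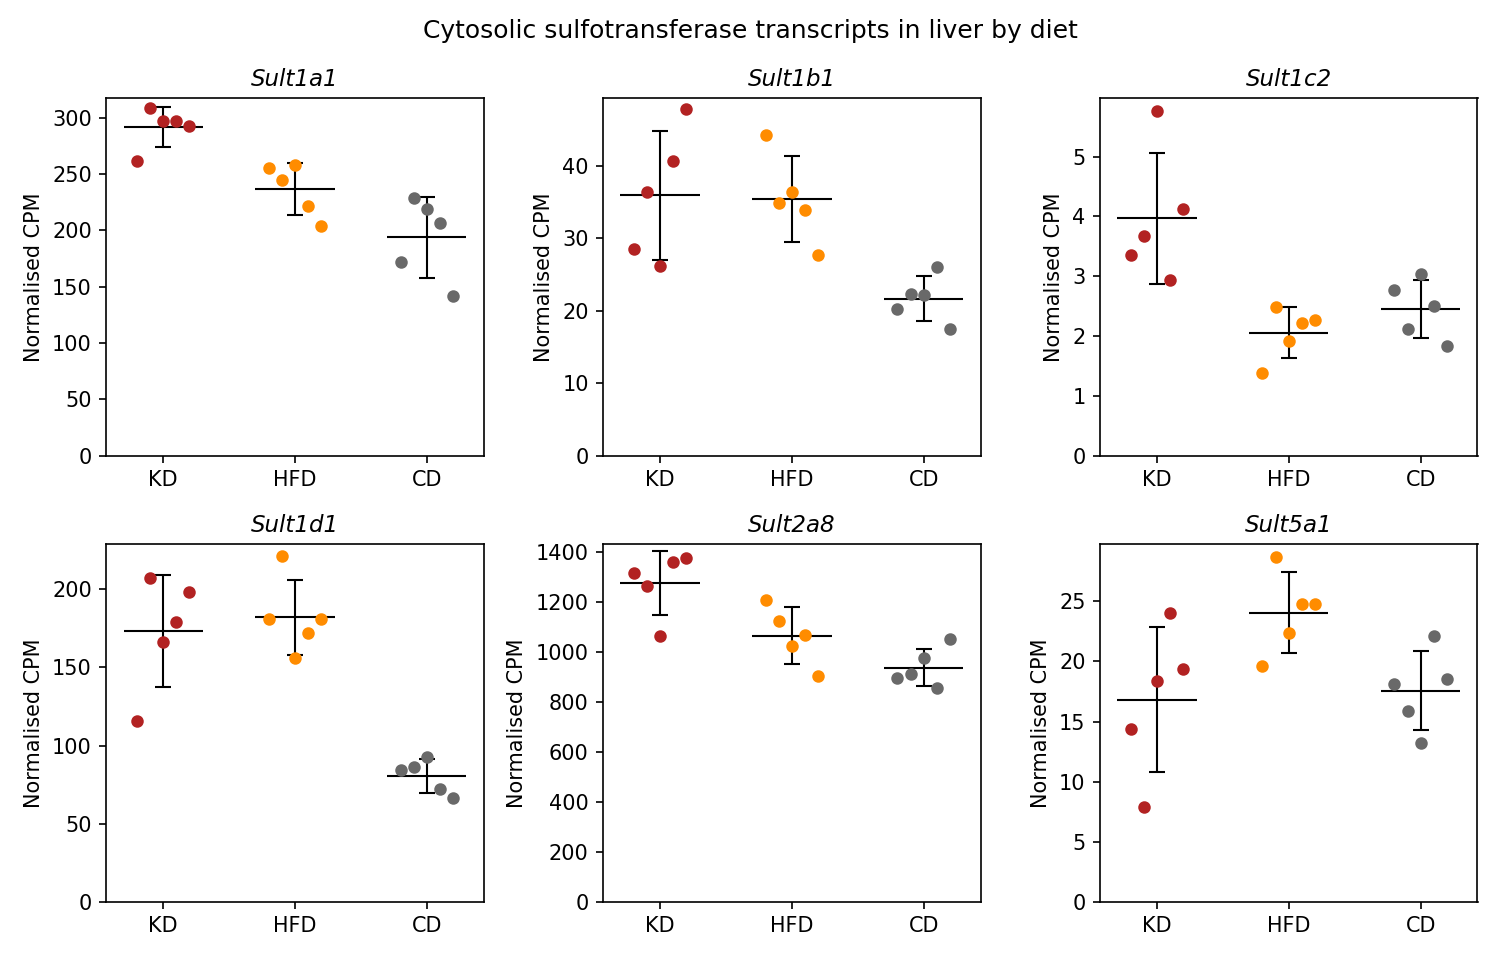
Normalised CPM of 6 sulfotransferase genes in KD, HFD and CD livers, with 1 point per library and the mean with its SD (n = 5 per diet). Sult1d1 and Sult1b1 are higher in KD and in HFD than in CD, Sult1c2 is higher in KD than in HFD and CD, Sult1a1 and Sult2a8 have their highest mean in KD and their lowest in CD, and Sult5a1 is spread widely in KD.

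In HFD against CD, 2 of the 6 members tested rose, Sult1d1 and Sult1b1, which lie side by side on chromosome 5. None fell, by edgeR, DESeq2 or limma or at an unadjusted p under 0.05, and 4 did not pass the test. Among all genes tested, 8.30% rose and 7.32% fell, 15.6% together, and the members' median log2 fold change was 0.37, against 0.01 for all genes. For the same 2 members every HFD library was above every CD library, which 5.50% of all genes showed, while 4.81% showed the opposite.

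Sult1d1 had 181, 221, 156, 172 and 181 CPM in HFD livers, and none of these came near the CD libraries. The difference from CD was 2.27-fold with a 95% interval of 1.84 to 2.79 (log2 fold change 1.18, SE 0.141, adjusted p = 7.40e-05). Sult1b1 had 44.2, 34.8, 36.4, 33.9 and 27.7 CPM in HFD livers, all above the CD libraries. Its difference from CD was 1.64-fold with a 95% interval of 1.28 to 2.09 (log2 fold change 0.71, adjusted p = 0.00993).

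Sult1a1 averaged 237 ± 23.1 CPM in HFD livers and 194 ± 36.1 CPM in CD livers, with overlapping libraries. The 1.22-fold difference did not pass the test (95% interval 1.04 to 1.43, adjusted p = 0.0760), although it did when CD library 16 was left out (adjusted p = 0.0393, against 0.0393 to 0.316 over all 25 alternatives). Sult2a8 averaged 1066 ± 114 CPM in HFD livers and 939 ± 75.8 CPM in CD livers, a 1.14-fold difference (95% interval 0.999 to 1.29, adjusted p = 0.169). Sult1c2 averaged 2.06 ± 0.424 CPM in HFD livers and 2.45 ± 0.481 CPM in CD livers, a ratio of 0.835 (95% interval 0.629 to 1.11, adjusted p = 0.397).

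In KD against HFD, 3 of the 6 members tested rose, Sult1c2, Sult1a1 and Sult2a8. None fell by edgeR, DESeq2 or limma, and 1, Sult5a1, was lower at an unadjusted p under 0.05. Among all genes tested, 13.1% rose and 13.0% fell, 26.1% together, and the members' median log2 fold change was 0.14, against -0.02 for all genes. For Sult1c2 and Sult1a1 every KD library was above every HFD library, which 9.30% of all genes showed, while 7.73% showed the opposite.

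Sult1c2 had the largest of these differences. It had 1.39, 2.49, 1.92, 2.21 and 2.27 CPM in HFD livers, all below the KD libraries given above, and averaged 3.97 ± 1.09 CPM in KD livers. The difference was 1.93-fold with a 95% interval of 1.47 to 2.53 (log2 fold change 0.95, SE 0.189, adjusted p = 0.00133).

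Sult1a1 had 255, 245, 258, 222 and 204 CPM in HFD livers, just below the KD libraries. The difference was 1.23-fold with a 95% interval of 1.06 to 1.44 (log2 fold change 0.30, SE 0.107, adjusted p = 0.0447). The call was lost under 9 of 25 alternatives, which were length-scaled TPM counts (adjusted p = 0.0526) and the fits without KD library 3, 4, 6 or 8, HFD library 10, 12 or 14, or CD library 18, with an adjusted p of at most 0.107.

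Sult2a8 had 1210, 1125, 1023, 1067 and 905 CPM in HFD livers, which overlapped the KD libraries. The difference was 1.20-fold with a 95% interval of 1.05 to 1.36 (log2 fold change 0.26, adjusted p = 0.0356). The call was lost under 8 of 25 alternatives, which were the fit of these diets alone (adjusted p = 0.0528) and the fits without KD library 2, 3, 6 or 8 or HFD library 11, 12 or 14, with an adjusted p of at most 0.0894. With limma on log2(TPM + 0.5) the log2 fold change was 0.63, against a median of 0.24 for all genes.

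Sult1d1 and Sult1b1 showed no difference past the threshold between KD and HFD. The ratio was 0.951 for Sult1d1 (95% interval 0.776 to 1.17, adjusted p = 0.738) and 1.01 for Sult1b1 (95% interval 0.798 to 1.29, adjusted p = 0.943).

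**Figure D3:**
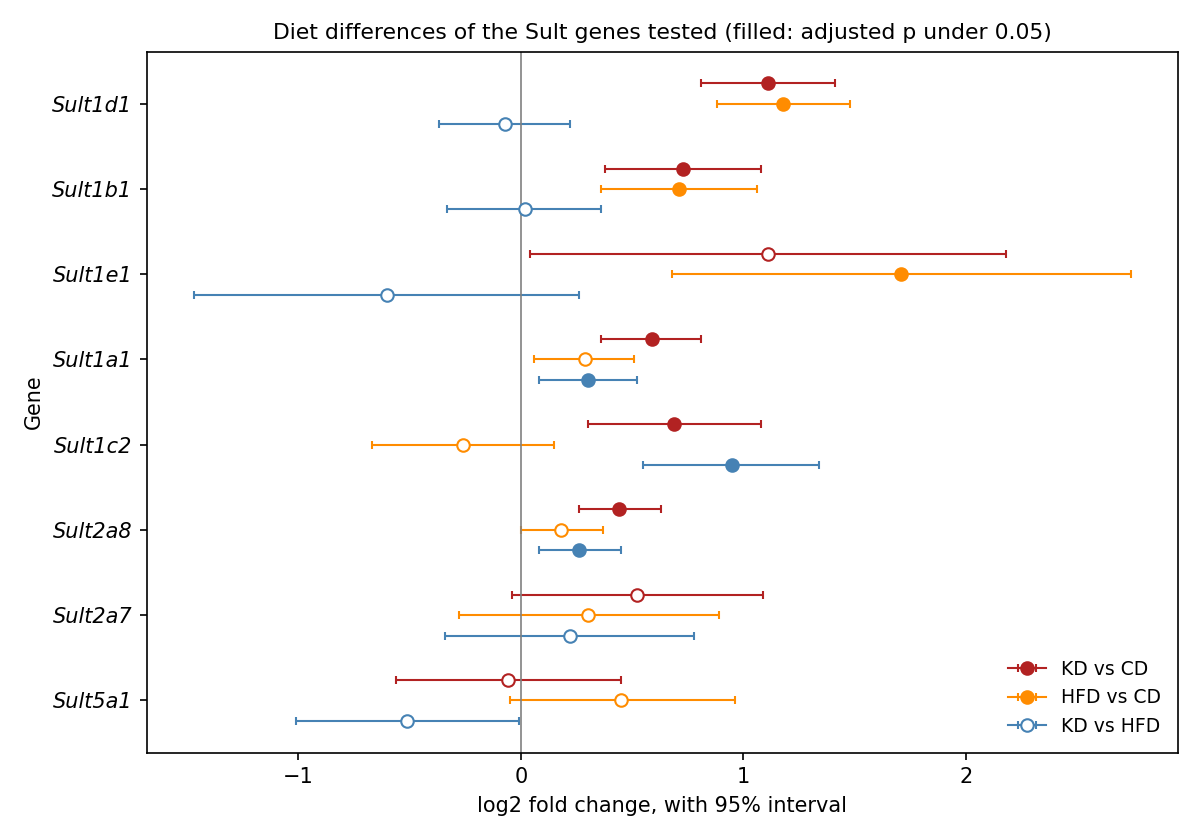
log2 fold change of the 8 Sult genes tested, with its 95% interval, for KD against CD, HFD against CD and KD against HFD. Points are filled where the adjusted p was under 0.05. The Sult1d1 points for KD and HFD against CD lie at 1.11 and 1.18, and the Sult1e1 intervals are the widest.

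Sult5a1 did not pass the test in any comparison. It had 14.4, 7.91, 18.4, 24.0 and 19.4 CPM in KD livers, 19.6, 28.7, 22.4, 24.8 and 24.8 CPM in HFD livers, and 18.1, 15.9, 13.2, 22.1 and 18.5 CPM in CD livers. KD libraries spread the most, and all groups overlapped. The ratio was 0.960 in KD against CD (95% interval 0.676 to 1.36, adjusted p = 0.877), 1.37 in HFD against CD (95% interval 0.965 to 1.94, adjusted p = 0.212) and 0.701 in KD against HFD (95% interval 0.495 to 0.993, adjusted p = 0.125). It passed in HFD against CD when those diets alone were fitted (adjusted p = 0.0412, of a range up to 0.432 over the alternatives) and fell in KD against HFD without KD library 6 (adjusted p = 0.0483, of a range up to 0.348). Only 20.8% to 30.8% of its reads were assigned to protein-coding transcripts, and the transcript Sult5a1-202, annotated as a target of nonsense-mediated decay, took 59.5% to 72.2%. Gm20388, a gene on the opposite strand, overlaps it and had 670 to 1920 reads per library. Sult5a1 shares 3.7% of its 31-base words with other genes on either strand, the most with Olfr906, at 47 of 4454 words. No source used here says whether the libraries kept the strand, so reads of words that Sult5a1 and Gm20388 share could not be told apart by strand.

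Sult3a1, which sulfates amines and is known as a female-predominant gene of mouse liver, was too low to test. It had 0, 2, 2, 2 and 3 reads in KD livers, 0, 0, 1, 0 and 4 reads in HFD livers and none in any CD liver. A count of 3 reads, about the upper 95% limit for a count of 0, corresponded to 0.0596 to 0.102 CPM over the 15 libraries, so no ratio was formed. It shares 13.8% of its 31-base words with Sult3a2.

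The remaining members drew their reads mainly from protein-coding transcripts. Sult1a1-202 took 93.1% to 97.1% of Sult1a1 reads across the 15 libraries, Sult1d1-201 took 89.4% to 93.5% of Sult1d1 reads, Sult2a8-203 took 74.5% to 83.0% of Sult2a8 reads and Sult1b1-203 took 59.1% to 72.5% of Sult1b1 reads. Among the minor forms, Sult2a8-202 took 3.99% to 5.98% of Sult2a8 reads under KD, 2.63% to 3.82% under HFD and 2.13% to 2.96% under CD, while the retained-intron form Sult2a8-206 took 0.766% to 1.14%, 1.04% to 1.36% and 1.70% to 2.00%. Both sets of shares were separate between KD and CD, and these forms were picked for that difference. Shares of overlapping transcripts are estimates by kallisto.

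Sult1e1, the estrogen sulfotransferase and the third gene of the chromosome 5 run, was expressed at the edge of detection. It had 2, 11, 3, 8 and 13 reads in KD livers, 7, 12, 7, 10 and 11 reads in HFD livers and 2, 2, 4, 4 and 2 reads in CD livers. HFD libraries were all above CD libraries, and KD libraries reached from the CD level to the HFD level. In HFD against CD the difference was 3.27-fold with a 95% interval of 1.61 to 6.68 (adjusted p = 0.0245), and the call was lost under 6 of 22 alternatives with a value, over which the adjusted p ran from 0.0151 to 0.0649. In KD against CD the log2 fold change of 1.11 (SE 0.511) did not pass (adjusted p = 0.110), nor did that of -0.60 in KD against HFD (adjusted p = 0.305). Sult2a7, next to Sult2a8, averaged 1.42 ± 0.735 CPM under KD, 1.23 ± 0.289 CPM under HFD and 0.987 ± 0.162 CPM under CD. It passed in no comparison by edgeR (adjusted p = 0.156 in KD against CD, 0.496 in HFD against CD and 0.584 in KD against HFD). With limma on log2(TPM + 0.5) it rose in KD against CD (adjusted p = 0.0396, of a range up to 0.607 over the alternatives). The other 12 Sult genes had at most 3 reads in a library. These include Sult2a1 and Sult2a2, which are known as female-predominant in mouse liver. Of the 12, 6 had no read in any library.

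The 18 supply genes tested make or carry the sulfate donor, act on sulfate or its precursors, or clear the spent donor. Of these, 5 rose and 3 fell in KD against CD, where 16.2% of all genes rose and 14.6% fell. The counts were 9 that rose and 2 that fell with limma on log2(TPM + 0.5), where 93.2% of all calls were rises. PAPS synthase 2 (Papss2), the abundant form in liver, averaged 267 ± 56.1 CPM in KD livers and 192 ± 44.3 CPM in CD livers, a 1.39-fold rise (adjusted p = 0.0376) with overlapping libraries. PAPS synthase 1 (Papss1), the scarce form here, averaged 3.99 ± 0.153 CPM in KD livers and 5.99 ± 0.382 CPM in CD livers and fell by 0.58 on the log2 scale (adjusted p = 0.000297).

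Genes of cysteine and sulfide oxidation were called in both directions. Cdo1, which commits cysteine to oxidation, averaged 1484 ± 237 CPM in KD livers and 1126 ± 117 CPM in CD livers (1.32-fold, adjusted p = 0.00528). Sqor, the first enzyme of mitochondrial sulfide oxidation, averaged 148 ± 12.1 CPM in KD livers and 112 ± 10.2 CPM in CD livers (1.32-fold, adjusted p = 0.000986). Ethe1, the persulfide dioxygenase of the same route, averaged 17.8 ± 2.24 CPM in KD livers and 47.5 ± 4.63 CPM in CD livers, and fell by 1.42 on the log2 scale (adjusted p = 4.95e-09). Slc26a6, an anion exchanger that can carry sulfate, fell by 0.82 on the log2 scale (adjusted p = 0.000182), and the sulfate transporter Slc13a4 rose 2.11-fold at under 1 CPM (adjusted p = 0.0121). Impad1, the Golgi phosphatase that clears the spent donor, rose 1.22-fold (adjusted p = 0.00112).

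In HFD against CD none of the 18 supply genes rose by edgeR, DESeq2 or limma, with 2 higher at an unadjusted p under 0.05. In that comparison, where 15.6% of all genes were called, 3 fell, Ethe1 to 28.9 ± 2.74 CPM in HFD livers, against 47.5 ± 4.63 CPM in CD livers (adjusted p = 5.38e-05), Slc26a6 (adjusted p = 0.00152) and Papss1 (adjusted p = 0.0188). In KD against HFD, where 26.1% of all genes were called, 3 of the 18 rose and 2 fell. Those that rose were Impad1, Sqor and Bpnt1, the cytosolic phosphatase for the spent donor. Ethe1 fell by 0.70 on the log2 scale (adjusted p = 2.25e-05), and Got1, the cytosolic aspartate aminotransferase, fell to 73.7 ± 17.1 CPM in KD livers, against 136 ± 44.7 CPM in HFD livers (adjusted p = 0.0136).

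**Figure D4:**
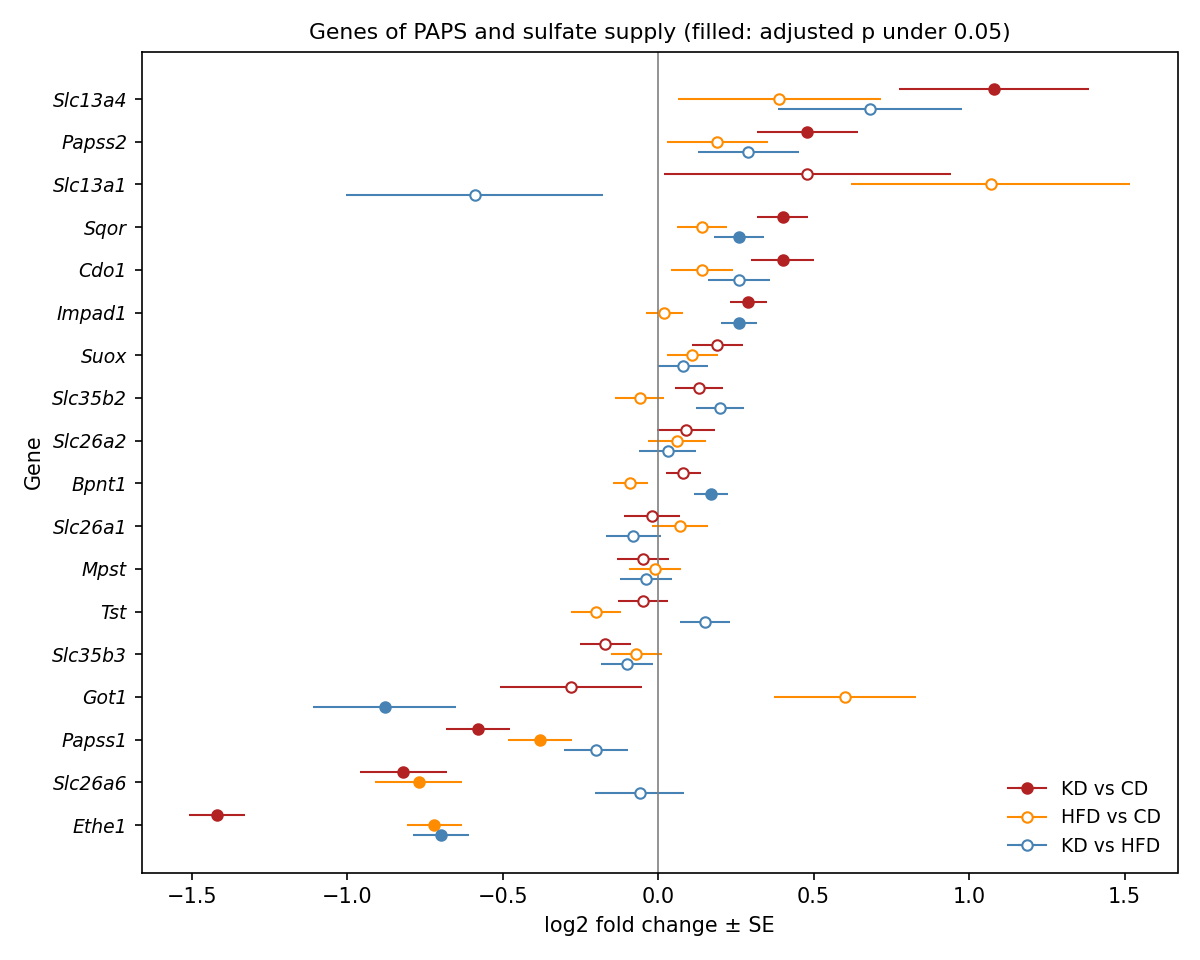
log2 fold change with its SE for the 18 tested genes of PAPS and sulfate supply, in KD against CD, HFD against CD and KD against HFD, ordered by the first. Points are filled where the adjusted p was under 0.05. Ethe1 lies lowest, at -1.42 in KD against CD and -0.72 in HFD against CD.

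Sulfatases and Golgi sulfotransferases were followed in the same way. Among all genes tested, 30.8% were called in KD against CD, 15.6% in HFD against CD and 26.1% in KD against HFD. These shares also stand beside the counts of the lists below. Of 10 sulfatases tested, 3 rose and 1 fell in KD against CD, while 2 fell in HFD against CD and 2 rose in KD against HFD. With limma on log2(TPM + 0.5), 6 rose and none fell in KD against CD, and none passed in HFD against CD. Arsg, a lysosomal sulfatase that acts on heparan sulfate, averaged 20.5 ± 3.38 CPM in KD livers, 9.49 ± 2.25 CPM in HFD livers and 12.2 ± 0.898 CPM in CD livers, and rose 1.68-fold in KD against CD (adjusted p = 0.000585) and 2.16-fold in KD against HFD (adjusted p = 3.09e-05). Arsa, which takes sulfate off sulfatide, averaged 18.0 ± 0.627 CPM in HFD livers and 26.2 ± 3.60 CPM in CD livers and fell (adjusted p = 0.0147). Of 17 Golgi sulfotransferases tested, 2 rose and 4 fell in KD against CD, and 2 rose and 3 fell in KD against HFD. With limma on log2(TPM + 0.5) the count in KD against CD was 6 that rose and none that fell. None of the 17 passed in HFD against CD by edgeR, DESeq2 or limma, with 3 at an unadjusted p under 0.05. Gal3st1, which makes sulfatide, averaged 2.29 ± 0.599 CPM in KD livers, 0.625 ± 0.106 CPM in HFD livers and 0.969 ± 0.381 CPM in CD livers, and rose 2.33-fold in KD against CD (adjusted p = 0.000582) and 3.62-fold in KD against HFD (adjusted p = 2.90e-05). Tpst1, a tyrosylprotein sulfotransferase, fell by 0.50 on the log2 scale in KD against CD (adjusted p = 0.000286).

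Transcription factors and the growth hormone receptor (Ghr), known to act on Sult genes or on related liver genes, were given from a list of 20, of which 19 were tested. In KD against CD 7 rose and none fell, with 1 lower at an unadjusted p under 0.05. The fatty acid receptor Ppara averaged 142 ± 16.3 CPM in KD livers, 82.7 ± 14.8 CPM in HFD livers and 52.1 ± 7.0 CPM in CD livers, a 2.73-fold rise in KD against CD (adjusted p = 1.70e-07) and a 1.59-fold rise in HFD against CD (adjusted p = 0.00150). The xenobiotic receptor CAR (Nr1i3) averaged 393 ± 25.8 CPM in KD livers and 247 ± 51.6 CPM in CD livers (1.59-fold, adjusted p = 0.000908), and PXR (Nr1i2) rose 1.40-fold (adjusted p = 0.00108). The estrogen receptor Esr1 averaged 37.7 ± 3.54 CPM in KD livers, 17.5 ± 3.66 CPM in HFD livers and 22.4 ± 2.88 CPM in CD livers, and rose 1.68-fold in KD against CD (adjusted p = 0.000190). The partner receptor Rxra rose in every comparison, by 1.38-fold in KD against CD (adjusted p = 4.69e-05) and 1.15-fold in HFD against CD (adjusted p = 0.0444). In HFD against CD 2 of the 19 rose, Ppara and Rxra, and in KD against HFD 5 of the 19 rose.

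Several Sult genes are sex-biased in mouse liver, so genes of known sex bias were also followed. Of 10 female-biased genes tested, 8 rose in KD against CD, 2 rose in HFD against CD and 7 rose in KD against HFD. Of 15 male-biased genes tested, 13 fell in KD against CD and 10 fell in KD against HFD. None of the 15 passed in HFD against CD by edgeR, where 3 had an unadjusted p under 0.05 and DESeq2 called 3. Cyp2b9, a female-biased cytochrome P450, averaged 89.3 ± 61.3 CPM in KD livers, 1.51 ± 1.35 CPM in HFD livers and 0.663 ± 0.730 CPM in CD livers. The male-biased complement gene C6 averaged 85.7 ± 25.2 CPM in KD livers, 305 ± 63.8 CPM in HFD livers and 269 ± 58.0 CPM in CD livers. Sult2a1, Sult2a2 and Sult3a1 had at most 4 reads in a library, too few to say whether they differed between diets.

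Markers of liver zones differed between diets too. Of 10 pericentral markers, 7 rose and 2 fell in KD against CD, 4 rose and 1 fell in HFD against CD, and 6 rose and 1 fell in KD against HFD. Their summed level was 12969 to 14964 CPM under KD, 8739 to 10059 CPM under HFD and 6723 to 8651 CPM under CD, and none was at 0. Most of this sum was Cyp2e1, at 10848 ± 689, 6938 ± 522 and 5220 ± 664 CPM in the same diets. The 2 that fell in KD against CD were Cyp27a1 and Cyp1a2. Of 10 periportal markers, 2 rose and 5 fell in KD against CD, 2 rose and 1 fell in HFD against CD, and 2 rose and 6 fell in KD against HFD, with summed levels of 4730 to 7272 CPM under KD, 7039 to 8417 CPM under HFD and 4590 to 7409 CPM under CD, and none was at 0. With limma on log2(TPM + 0.5), 4 periportal markers rose and 2 fell in KD against CD. The part of these markers in the differences of the Sult genes was not tested.

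Markers of other cells were lower in level. B and plasma cell markers fell in KD against CD at 6 of 7 genes, with summed levels of 3.14 to 4.15 CPM under KD, 4.57 to 8.65 CPM under HFD and 5.83 to 16.2 CPM under CD, and erythroid markers fell at 5 of 5 genes tested, with 338 to 555, 399 to 1167 and 735 to 1076 CPM. Among 5 cholangiocyte, 7 endothelial and 8 Kupffer cell markers tested, edgeR called none in KD against CD or HFD against CD, while DESeq2 called 1 of each list in KD against CD and 1 endothelial and 1 Kupffer cell marker in HFD against CD. In KD against HFD, 1 cholangiocyte marker fell and 2 Kupffer cell markers rose. Stellate cell and fibroblast markers rose at 1 of 8 genes in KD against CD and at 1 in KD against HFD, T and NK cell markers fell at 1 of 5 in each of these comparisons, and edgeR called neither of the neutrophil markers tested. Among 8 kidney and intestine markers, Lgals4, the only one tested, averaged 24.1 ± 2.77 CPM in KD livers and 13.2 ± 2.16 CPM in CD livers and rose (adjusted p = 4.56e-06), and Fabp6 was at 0 in all libraries. Of 7 pancreas markers 1 was tested, and it fell in KD against CD. The part of these markers in the results was not tested.

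The genes whose pattern over the 15 libraries was most like each called member were found by the mean absolute difference of centred log2 CPM, among all genes tested with a mean of at least 5 CPM. For Sult1d1 the nearest were Asic5, a bile acid-sensitive ion channel, at 0.17 and Saa4, a serum amyloid A protein, at 0.18, where the member's own mean deviation was 0.53. Saa4 averaged 591 ± 110 CPM in KD livers, 564 ± 110 CPM in HFD livers and 229 ± 23.0 CPM in CD livers. For Sult1b1 they were Dmgdh, the mitochondrial dimethylglycine dehydrogenase, at 0.12 and Hsd17b10, a mitochondrial dehydrogenase, at 0.14, against 0.36. For Sult1a1 they were Sun2 and Gpld1, both at 0.10 against 0.24, and for Sult2a8 a near gene was Kmo, kynurenine monooxygenase, at 0.07 against 0.19. For Sult1c2 they were Slc35g1 at 0.18 and Anpep, aminopeptidase N, at 0.20, against 0.38. These are descriptions of 15 libraries that fall into 3 diets.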

How the data were processed

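Liver RNA-seq libraries of the 3 diets were analysed from transcript tables. Per the submitters' processing notes, Trimmomatic 0.36, kallisto 0.44 and edgeR 3.28 were used with GRCm38.p6. Per the file headers, each table gives the estimated count, the TPM and the effective length of 106332 transcripts, which the authors made with kallisto and deposited without pooling. Transcript IDs were matched to GENCODE M21 (105734 of 106332). Those not matched held 0.184% to 0.223% of reads and were left out.

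Estimated counts were summed per gene and rounded. All 15 libraries entered 1 edgeR 4.0.16 quasi-likelihood fit (robust, TMM, filterByExpr with a minimum count of 10 and a total of 15, diet only), with Benjamini-Hochberg adjustment over 13967 genes and a threshold of 0.05. The standard error is the log2 fold change over the root of F. TPM differ from CPM in that lengths enter, and effective lengths differed by diet. The limma alternative used limma 3.58.1 with a pseudocount of 0.5, and DESeq2 was version 1.42.0. The scripts were tested on simulated data. Libraries of 1 diet differed beyond sampling noise in all 30 pairs (chi-square per degree of freedom 18.5 to 113), so none was counted as a duplicate. This does not show that each library is a different mouse. Intervals reflect the spread between libraries.

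The members and gene lists were chosen with earlier results of these data known. Named genes were the Sult genes, the genes with the smallest adjusted p in each list (up to 4, or 3 for sex bias) and the 2 nearest genes to each called member. Cdo1, Slc13a4, Papss2, Bpnt1 and Lgals4 were named after their values were seen. Promoter windows are from RefSeq (GRCm38.p6), where all 7 members had one. A few genes that the rule names are not reported here.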

Additional observations from a re-analysis of the deposited data

How the results depend on the processing

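Results were recomputed under 25 alternatives, of which 15 left out 1 library each. In KD against CD, 5 members rose and none fell under all 25. In HFD against CD, 2 to 3 members rose and none fell. In KD against HFD, 1 to 3 members rose and 0 to 1 fell as single libraries were left out, with the lowest count of rises, 1, without KD library 3, 6 or 8 or HFD library 12 or 14. The number of genes called in HFD against CD was 2182, but 477 with limma on log2(TPM + 0.5), and 1507 to 2754 without 1 library. No paired analysis was possible because the diets share no replicate number.

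Directions turned only for differences that did not pass. For Sult5a1 in KD against CD the log2 fold change of -0.06 became 0.00 with total-count scaling and 0.14 with limma, and ran from -0.23 to 0.12 without 1 library. For KD against HFD, Sult1b1 was -0.05 with length-scaled TPM counts and -0.10 to 0.11 without 1 library, Sult1d1 was 0.25 with limma and -0.14 to 0.04 without 1 library, and Sult2a7 was -0.14 to 0.37 without 1 library. The cause was not tested. Sult1e1 had too few reads for the stricter filter and for the fits of 1 diet with CD alone, and DESeq2 gave it no adjusted p in HFD against CD. Its rise in HFD against CD was lost with limma (adjusted p = 0.0649) and without HFD library 10, 12 or 14 or CD library 15 or 16. At its 2 to 13 reads per library, and at the level of Sult3a1, depth limits what can be detected.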
